A study of Homo sapiens with 18 samples.

Results

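HLA class I and antigen processing genes were described in human neuroblastoma cells that had become resistant to entrectinib, a drug that blocks the kinases ALK, ROS1 and the Trk family. The members were the 9 genes HLA-B, HLA-C, HLA-E, B2M, TAP1, TAP2, PSMB8, PSMB9 and NLRC5, matched by symbol among the 63657 deposited Ensembl gene identifiers. All 9 were found, and 5 of them (HLA-C, HLA-E, B2M, TAP2 and NLRC5) were high enough to be tested, with 3 or more libraries at 1 FPKM or above. FPKM scales the fragments of a gene by its length and by the total of the library, so levels can be set side by side between genes.

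RNA sequencing gave 18 libraries, 3 from each of 6 lines. The parental line is labelled SY5Y_BR6, and the labels' protocols name the injected cells as SY5Y-TrkB, SH-SY5Y neuroblastoma cells with the neurotrophin receptor TrkB. ER5, ER28, ER29, ER42 and ER47 are the resistant lines, and each came from 1 subcutaneous flank tumour of these cells in 6-week-old athymic nu/nu mice, after the tumour had first responded to oral entrectinib at 60 mg/kg and then grown back. Athymic mice lack mature T cells and keep natural killer cells. The mice of ER5, ER28 and ER29 were dosed every 4 hours and those of ER42 and ER47 every 6 hours. In culture the resistant lines were taken from 10 nM up to 750 nM entrectinib and were held at 200 nM for harvest. No drug is given in the labels for the parental culture, so resistance, the drug in the medium, passage through a mouse and culture history cannot be told apart. Separate cultures are not stated for the 3 libraries of a line. The p-values thus reflect the spread between these libraries alone, and it may be technical.

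Class I molecules show peptides from the cell's own proteins at its surface, where CD8 T cells read them. The proteasome cuts the peptides, the TAP1 and TAP2 transporter carries them into the endoplasmic reticulum, and there they are loaded onto a heavy chain (such as HLA-B or HLA-C) held by B2M. HLA-E is a further heavy chain, which presents leader peptides of other class I chains to receptors of natural killer cells. Interferon switches the proteasome to the immune subunits PSMB8 and PSMB9, and NLRC5 is a nuclear activator of class I promoters. Neuroblastoma is known for low class I levels at the cell surface.

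Relative depth, read from the steps in the values of low genes, was estimated at 1 to 1.94 times that of parental replicate 1. The estimate is rough: in each other library the most common ratio was shared by 121 to 167 of 522 to 746 low genes. Libraries of 1 line correlated across genes (not independent replicates) at 0.953 to 0.975 in log2 values, and libraries of different lines at 0.892 to 0.964. Of 8 neuroblastoma markers, 7 reached the level for testing and TH did not; their summed FPKM was 2377 to 2458 in the parental libraries and 1478 to 2141 in the resistant ones. No marker of leukocytes, which carry much class I, reached that level: the 8 summed to 1.34 to 1.84 FPKM in parental and 1.34 to 2.32 in resistant libraries, and CD3E and TYROBP were listed at 0 throughout. The 5 endothelial markers summed to 0.387 to 0.536 and 0.145 to 0.702, with PECAM1 at 0 throughout. Fibroblast markers summed to 38.6 to 46.3 FPKM in parental and 38.6 to 96.9 in resistant libraries. Of 6 tested 5 rose and LUM fell in the mean of the 5 lines, against 23.9% and 28.9% of all tested genes. DCN, among the 5, was at 0 in all parental libraries and passed the filter through resistant libraries alone, so its call is not separate support. Host cells carried over from the tumours would be mouse cells, and the processing notes name only the human genome hg19, so these markers may miss them. The part of other cell types in the results below was not tested.

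Among the heavy chains, HLA-E rose in 4 of 5 resistant lines, up to 3.06-fold in ER5 on the FPKM + 1 scale. HLA-C rose in all 5 lines, in ER28 and ER42 by calls that several alternatives lost. HLA-B was listed at or near 0 in every library.

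HLA-E (ENSG00000204592, chromosome 6) stood at 2.64, 2.78 and 2.60 FPKM in the parental libraries. It stood at 10.9, 11.1 and 8.87 in ER5 and at 7.99, 7.40 and 7.80 in ER29. All values of these lines lay far above the parental ones. In ER47 the libraries gave 6.20, 7.30 and 6.54, and in ER28 5.52, 5.23 and 5.50. ER42 was closest to the parental line, at 3.21, 2.80 and 3.98, and its lowest library lay just above the highest parental one. The order of the means was therefore parental, ER42, ER28, ER47, ER29 and ER5, and no neighbours overlapped in the range of their 3 libraries, a property chosen for mention after the values were seen. Such complete separation of the 6 lines was found in 34 of the 19799 tested genes (0.172%). All 15 resistant libraries were above all 3 parental ones, as in 8.68% of tested genes.

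Calls came from a limma model of log2(FPKM + 1) over all tested genes, at a Benjamini-Hochberg adjusted p under 0.05. By that test, the HLA-E fold was 1.61 ± 0.10 in ER5 (log2, SE; adjusted p = 6.47e-09) and 1.25 ± 0.10 in ER29 (adjusted p = 1.57e-07). In ER47 it was 1.06 ± 0.10 (adjusted p = 9.04e-07), and in ER28 0.80 ± 0.10 (adjusted p = 2.03e-05). The fold of 0.23 ± 0.10 in ER42 was not called (adjusted p = 0.0861), although it was with libraries scaled by the median of ratios (adjusted p = 0.0426) and without ER42 replicate 2 (adjusted p = 0.0299). The mean of the 5 lines was 0.99 ± 0.08 above the parental line (adjusted p = 7.94e-08). Its error comes from the spread of libraries within lines, not between lines. The lines themselves differed in HLA-E by the F test among the 5 resistant lines (adjusted p = 9.09e-07), a test that called 52.3% of genes.

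HLA-C (ENSG00000204525, chromosome 6), a classical heavy chain, stood at 7.59, 6.31 and 5.94 FPKM in the parental libraries. ER29 was highest, at 14.7, 12.8 and 13.6, with no overlap with any other line. The libraries gave 12.6, 9.31 and 9.40 in ER5 and 9.71, 11.2 and 11.6 in ER47. ER5 and ER47 overlapped each other and lay above all parental libraries. ER28 gave 9.60, 7.46 and 9.13, and ER42 gave 7.72, 8.33 and 10.1. The second ER28 library fell inside the parental range, so 14 of 15 resistant libraries were above the highest parental one. An HLA-B transcript spans HLA-C in the gene annotation, and how shared reads were counted is not stated, so the HLA-C level is uncertain.

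The HLA-C fold was 0.95 ± 0.13 in ER29 (adjusted p = 1.99e-05), 0.64 ± 0.13 in ER47 (adjusted p = 0.000784) and 0.58 ± 0.13 in ER5 (adjusted p = 0.00136). In ER28 it was 0.35 ± 0.13 (adjusted p = 0.0432) and in ER42 0.35 ± 0.13 (adjusted p = 0.0420), and each of these calls was lost in 9 of 27 alternatives, with adjusted p up to 0.151 and 0.172. Both calls were lost with no filter (adjusted p = 0.0802 in ER28 and 0.0756 in ER42) and in the fit to the 2 lines compared (0.0690 and 0.0724). Quantile normalisation ended that of ER42 (adjusted p = 0.0529). Leaving out parental replicate 2, parental replicate 3, ER29 replicate 3, ER42 replicate 2 or ER47 replicate 2 ended both calls. Leaving out ER28 replicate 1 or 3 ended that of ER28, and leaving out ER42 replicate 3 that of ER42. HLA-C was 1 of the 1115 genes (5.63%) called higher in all 5 lines. The mean over lines was 0.57 ± 0.10 (adjusted p = 0.000173), and the lines differed among themselves (F test, adjusted p = 0.00538). Over the 18 libraries, which include 3 from each line, log2 levels of HLA-C and HLA-E had a Pearson r of 0.75.

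HLA-B (ENSG00000234745, chromosome 6), the other classical chain among the members, was listed at 0 in 13 of 18 libraries, among them all 3 of the parental line and all 3 of ER28. The 5 values above 0 were 0.112 in ER5 replicate 1, 0.0864 in ER29 replicate 2, 0.0679 in ER42 replicate 3, and 0.149 and 0.0900 in ER47 replicates 1 and 3. It was below the level for testing, and without a filter on low values no line was called against the parental line, the lowest adjusted p being 0.166 in ER47. A value of 0 without read counts gives no upper limit. The HLA genes vary between people, and reads of an allele unlike the reference may be lost in alignment; that was not tested here.

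**Figure D1:**
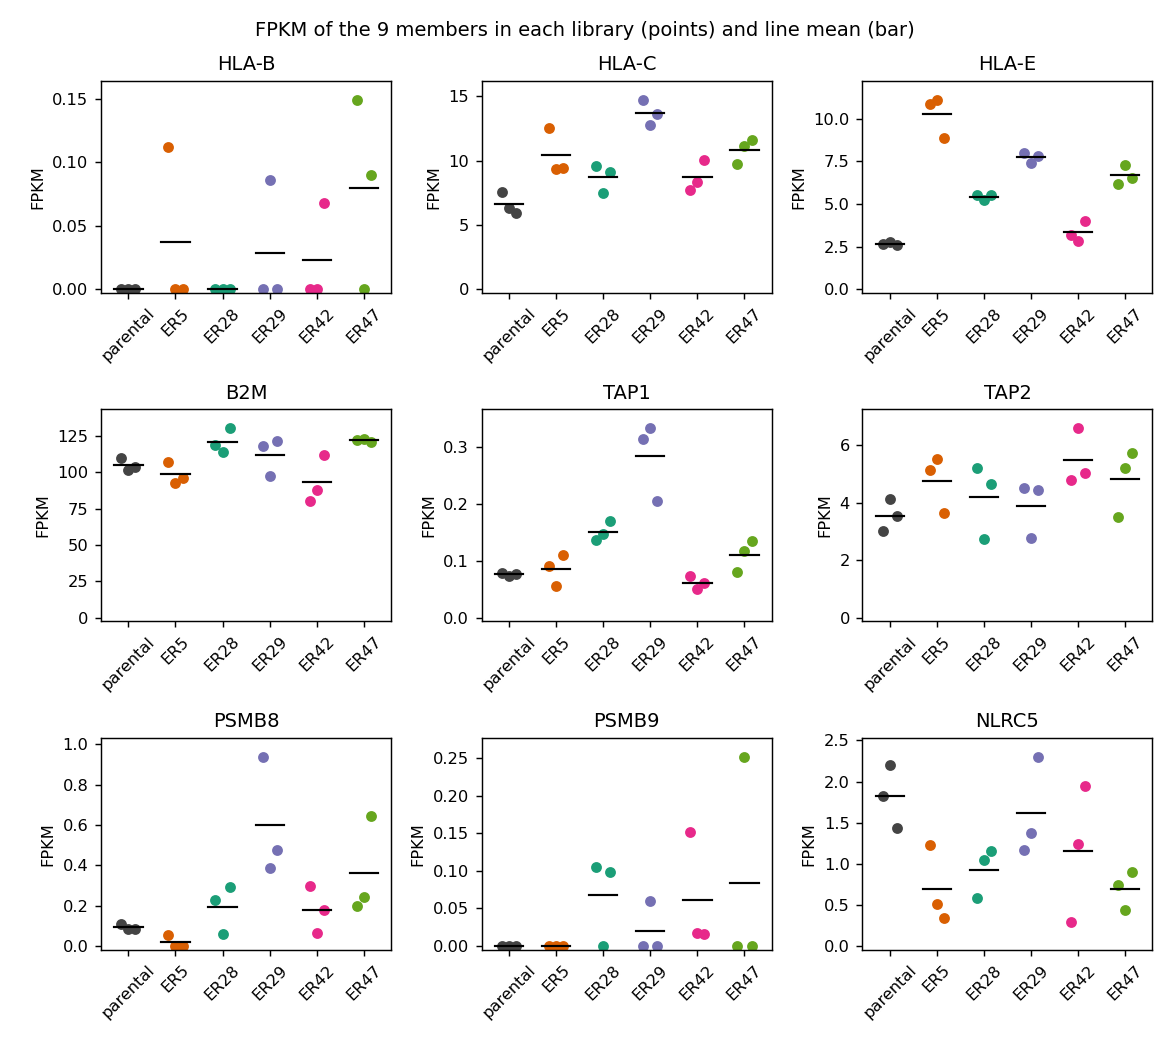
FPKM of each of the 9 members on the vertical axis, with a panel per gene and its own linear scale; each point is 1 library, grouped by line on the horizontal axis, and the bar is the mean of 3 libraries. HLA-E lies at 2.60 to 2.78 in the parental line and at 8.87 to 11.1 in ER5, and the ranges of its lines nowhere overlap. All values of HLA-B, TAP1, PSMB8 and PSMB9 are below 1 FPKM.

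The promoters of HLA-B and HLA-C are shown because the genes are near copies with levels that differ this much, and that of B2M because its level is the highest of the members. The letters are from RefSeq on GRCh38.p14, written 5′ to 3′ on the strand of the gene, and are the reference, not the alleles of these cells. HLA-B is at chr6:31357189-31357429 (minus strand), HLA-C at chr6:31272131-31272342 (minus strand) and B2M at chr15:44711267-44711486 (plus strand). Each run is the upstream part of a window from 250 bases before to 50 after the start of the gene and ends before any transcript start of GENCODE v29. Capitals mark matches, on either strand, to GAAANNGAA or GAANNGAAA (shortened forms of the interferon response element), GGGATTCCC (the core of a kappaB site), TGACG (a site for CREB and ATF factors) or CCAAT (the NF-Y box).
HLA-B: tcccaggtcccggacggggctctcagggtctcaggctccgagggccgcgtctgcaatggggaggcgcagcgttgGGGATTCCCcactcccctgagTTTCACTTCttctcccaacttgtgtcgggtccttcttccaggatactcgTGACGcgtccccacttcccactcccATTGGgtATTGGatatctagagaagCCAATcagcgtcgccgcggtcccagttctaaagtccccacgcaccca
HLA-C: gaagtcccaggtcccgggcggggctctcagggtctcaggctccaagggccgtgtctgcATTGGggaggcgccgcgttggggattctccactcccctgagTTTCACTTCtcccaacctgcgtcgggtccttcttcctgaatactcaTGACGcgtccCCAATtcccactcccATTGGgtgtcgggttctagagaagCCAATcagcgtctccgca
B2M: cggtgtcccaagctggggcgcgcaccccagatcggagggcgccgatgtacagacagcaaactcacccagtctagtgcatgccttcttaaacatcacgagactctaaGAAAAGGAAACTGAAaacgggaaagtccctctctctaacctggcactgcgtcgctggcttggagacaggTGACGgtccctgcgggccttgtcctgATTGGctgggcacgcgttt
Between the HLA-B and HLA-C runs, 191 of 208 aligned bases (91.8%) were identical. Both hold GAANNGAAA, TGACG and CCAAT, and the HLA-B run holds GGGATTCCC, which the HLA-C run does not. B2M holds 2 overlapping matches to GAAANNGAA, with TGACG and CCAAT. In 35116 RefSeq windows shortened to the same 212 to 241 bases as the runs, 5.82% to 6.57% hold GAAANNGAA, 5.56% to 6.26% GAANNGAAA, 0.29% to 0.33% GGGATTCCC, 17.7% to 20.6% TGACG and 29% to 31.5% CCAAT; the first pair of motifs can overlap. The motifs were chosen after the runs had been read, and a match describes letters only.

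B2M (ENSG00000166710, chromosome 15), the light chain of all class I molecules, was far more abundant than the other members. As fitted, it was not called against the parental line in any resistant line, and some alternatives did call it. The parental libraries gave 110, 101 and 103 FPKM, ER5 gave 107, 92.5 and 96.2, and ER42 gave 80.4, 87.7 and 112. ER28 gave 118, 114 and 130, ER29 gave 118, 97.1 and 121, and ER47 gave 122, 123 and 121. ER28 and ER47 lay above all parental libraries, while ER5, ER29 and ER42 overlapped them. The largest folds were 0.21 ± 0.11 in ER47 (adjusted p = 0.113) and 0.20 ± 0.11 in ER28 (adjusted p = 0.164), and the mean over lines was 0.05 ± 0.08 (95% interval -0.12 to 0.21, adjusted p = 0.663). The 5 lines differed from each other by the F test (adjusted p = 0.0161), with ER42 and ER5 lowest. Under quantile normalisation B2M was called higher in the mean (0.31, adjusted p = 0.00518) and in ER28, ER29 and ER47, and its fold changed sign in ER5 and ER42. B2M in ER47 was also called higher under median-of-ratios scaling (0.31, adjusted p = 0.0241), in the fit to the 2 lines compared (adjusted p = 0.0058) and without ER42 replicate 3 (adjusted p = 0.0427), and in ER28 in the fit to the 2 lines compared (adjusted p = 0.0494). Without ER42 replicate 3, its highest library, B2M was called lower in ER42 (-0.32 in place of -0.18, adjusted p = 0.0161).

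The NLRC5 activator fell in ER5 and ER47, by calls that several alternatives lost, and was called higher in no line. NLRC5 (ENSG00000140853, chromosome 16) stood at 1.83, 2.20 and 1.44 FPKM in the parental libraries. It gave 1.22, 0.510 and 0.337 in ER5 and 0.737, 0.443 and 0.900 in ER47. Every library of these lines lay below every parental one. ER28 gave 0.582, 1.05 and 1.16, also below the parental range. ER29 gave 1.16, 1.37 and 2.30, and ER42 gave 0.287, 1.24 and 1.94, both overlapping it. The fold was -0.77 ± 0.28 in ER5 (adjusted p = 0.0291) and -0.74 ± 0.28 in ER47 (adjusted p = 0.0384). The ER5 call was lost in 5 of 26 alternatives (adjusted p up to 0.110): no filter, and without parental replicate 1 or 2 or ER5 replicate 2 or 3. The ER47 call was lost in 7 of 26 (adjusted p up to 0.126): a pseudocount of 0.1, no filter, median-of-ratios scaling, and without parental replicate 1 or 2 or ER47 replicate 1 or 2. In ER28 it was -0.55 (adjusted p = 0.137), in ER42 -0.46 (adjusted p = 0.198) and in ER29 -0.13 (adjusted p = 0.728). NLRC5 in ER28 was called in the fit to the 2 lines compared (adjusted p = 0.0466). Without ER42 replicate 1, its lowest library, the ER42 fold was -0.13, and the ER29 fold ranged from -0.34 with a pseudocount of 0.1 to -0.0039 without ER29 replicate 1. The mean over lines was -0.53 ± 0.21 (adjusted p = 0.0486), and 16 of 25 alternatives lost that call, with adjusted p from 0.0199 to 0.194. The F test called no difference between the lines (adjusted p = 0.251), so ER5 and ER47 are not shown to differ from the rest.

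The TAP transporter was uneven: TAP2 was present at a few FPKM and TAP1 below 1 FPKM in every library. TAP2 (ENSG00000204267, chromosome 6) gave 3.00, 4.12 and 3.53 FPKM in the parental line and 4.79, 6.58 and 5.05 in ER42, the only line without overlap with the parental one. The other 12 resistant libraries lay between 2.75 and 5.74. No fold was called, the largest being 0.51 ± 0.22 in ER42 (adjusted p = 0.0760), with a mean over lines of 0.29 ± 0.17 (adjusted p = 0.165). In 3 of 27 alternatives TAP2 was called higher in ER42: protein-coding genes only (adjusted p = 0.0479), the fit to the 2 lines compared (adjusted p = 0.0379) and without ER28 replicate 2 (adjusted p = 0.0470). Of the 50-base stretches of its longest transcript, 35.8% also occur in transcripts of other genes, so its level is uncertain.

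TAP1 (ENSG00000168394, chromosome 6) stood at 0.0776, 0.0728 and 0.0771 FPKM in the parental libraries and at 0.314, 0.332 and 0.204 in ER29. ER28 gave 0.137, 0.147 and 0.169, and ER47 gave 0.0793, 0.117 and 0.135. These 3 lines lay above the parental range, and ER5 (0.0547 to 0.109) and ER42 (at most 0.0731) overlapped it. In the alternative without a filter, ER29 was called higher (0.25 ± 0.03, adjusted p = 7.51e-05), and the other lines were not. The mean of the 5 lines was also called higher there (0.08 ± 0.03, adjusted p = 0.0473).

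The immunoproteasome subunits PSMB8 and PSMB9 stayed below 1 FPKM, far below their constitutive counterparts. PSMB8 (ENSG00000204264, chromosome 6) gave 0.109, 0.0850 and 0.0838 FPKM in the parental line and 0.938, 0.388 and 0.477 in ER29. ER47 gave 0.197, 0.245 and 0.646, above the parental range. ER5 lay below it, at 0.0540, 0 and 0, while ER28 (0.0610 to 0.293) and ER42 (0.0632 to 0.298) overlapped it. Without the filter PSMB8 was called higher in ER29 (0.54 ± 0.13, adjusted p = 0.00719) and in no other line. ER29 was therefore the line with the highest HLA-C, TAP1 and PSMB8.

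PSMB9 (ENSG00000240065, chromosome 6) was listed at 0 in 11 of 18 libraries, among them all of the parental line and of ER5, and its highest value was 0.252 in ER47 replicate 2. In GENCODE v29, PSMB9 overlaps TAP1 and PSMB8 on the opposite strand, and an HLA-B transcript spans HLA-C. No source used here states whether counting used the strand, so the low values of PSMB9, TAP1 and PSMB8 are uncertain. HLA-B and HLA-C lie on the same strand, so use of the strand would not part them. How reads in their overlap were counted is not stated either, so the levels of both are uncertain.

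The constitutive forms that PSMB8 and PSMB9 replace, PSMB5 and PSMB6, fell in all 5 lines, as 12.3% of tested genes did. PSMB5 had a mean of 113 ± 2.16 FPKM in the parental line (SD, n = 3) and of 78.5 to 92.1 in the resistant lines. PSMB6 had 86.3 ± 1.41 FPKM in the parental line and 47.7 to 64.7 in the resistant lines. The third immune subunit, PSMB10, stood at 11.7 ± 1.85 FPKM in the parental line, and its folds from -0.27 in ER47 to 0.36 in ER5 were not called, the lowest adjusted p being 0.0808 in ER5.

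**Figure D2:**
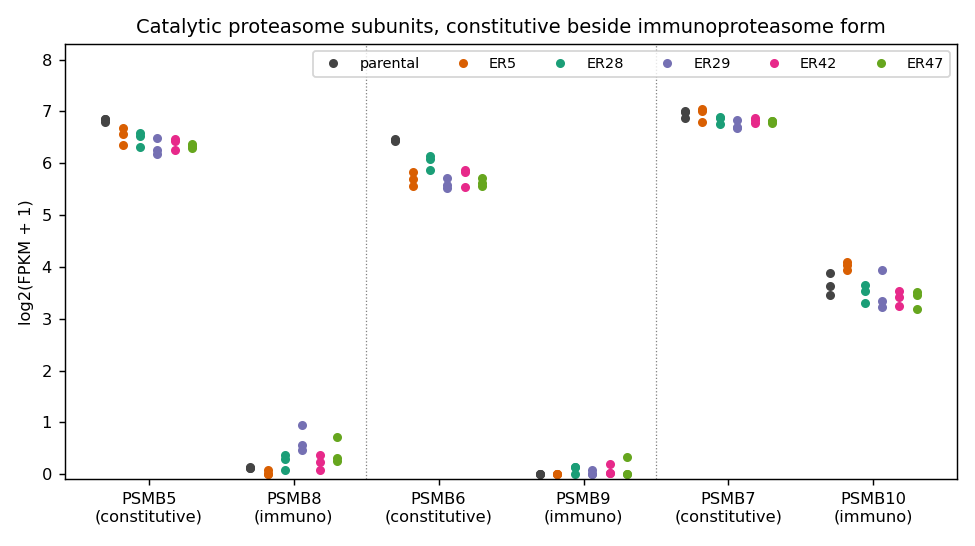
Log2(FPKM + 1) of the catalytic proteasome subunits, each constitutive form beside the immune form that replaces it; each point is 1 library, coloured by line. All 18 libraries of PSMB8 and PSMB9 lie below 1 on this scale, and the constitutive forms lie above 5.

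Read against all genes, the members did not stand out by number. In ER5, 2 of the 5 tested members were called higher and 1 lower, against 24.5% and 27.5% of all tested genes (52% in all). ER47 likewise had 2 higher and 1 lower, against 18.8% and 28.1% (46.9% in all). In ER28, 2 members were called, both higher, against 14.6% of genes higher and 20.9% lower (35.5% in all). ER29 had 2, both higher, against 23.1% higher and 27.1% lower (50.2% in all). HLA-C alone was called in ER42, where 16.9% of genes were higher and 22.8% lower (39.8% in all). Ranges of 3 libraries without overlap were also common: a line lay wholly above the parental range in 28.5% of tested genes for ER5, 22.1% for ER28, 29.6% for ER29, 26.7% for ER42 and 25.4% for ER47. It lay wholly below that range in 30.5% for ER5, 28.8% for ER28, 31.1% for ER29, 28.4% for ER42 and 33.1% for ER47, and all 15 resistant libraries did so in 15.9%. In the mean of the lines 2 rose and 1 fell, with 52.8% of all genes called, 23.9% higher and 28.9% lower. The median fold of the 5 tested members was 0.29, and that of all genes 0.02. Fewer cells of a kind and less RNA per cell cannot be told apart in such bulk libraries.

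**Figure D3:**
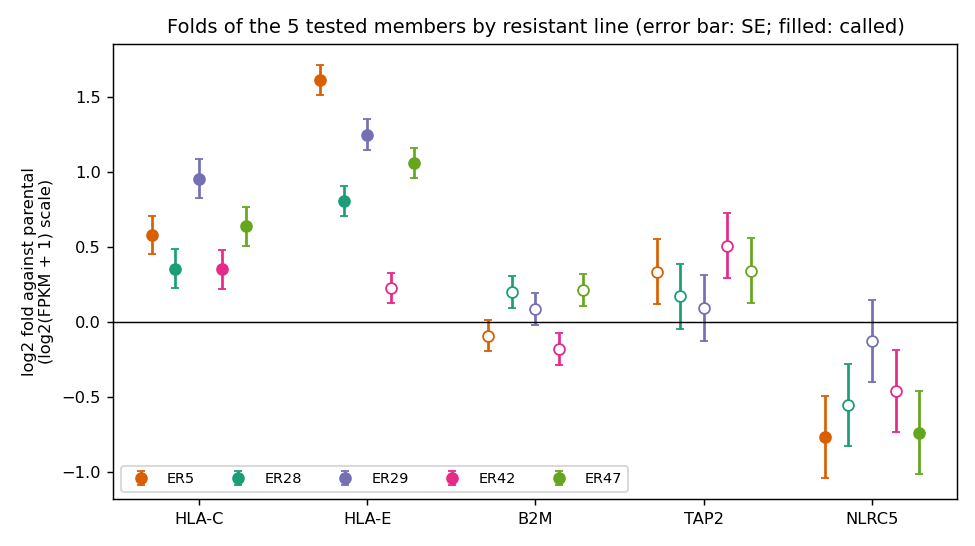
Log2 fold of the 5 tested members against the parental line on the log2(FPKM + 1) scale, by resistant line; error bars are SE, and filled points passed an adjusted p under 0.05. HLA-E spans 0.23 in ER42 to 1.61 in ER5, HLA-C is filled in all 5 lines, B2M and TAP2 in none, and NLRC5 is filled below 0 in ER5 and ER47.

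By dosing interval, only TAP2 among the 9 members had line means that did not overlap: 3.90, 4.21 and 4.77 FPKM in the lines from mice dosed every 4 hours, and 4.82 and 5.48 in those from mice dosed every 6 hours. Of all tested genes, 20.8% showed no overlap, and 3 lines against 2 cannot reach p under 0.05 in an exact permutation test. HLA-E had both its lowest resistant mean (ER42, 3.33) and a middle one (ER47, 6.68) in the latter lines.

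Several partners of the pathway fell while HLA-C and HLA-E rose. Of 10 peptide loading and trimming genes, 7 fell and 1 rose in the mean of the 5 lines (median fold -0.38). Among all tested genes 28.9% fell and 23.9% rose in that mean. Under quantile normalisation 5 of the 10 genes fell and none rose (median -0.15). The largest falls were those of the chaperone HSPA5 (-1.44 ± 0.10, adjusted p = 3.30e-08), of CALR (-1.12 ± 0.09, adjusted p = 5.62e-08) and of PDIA3 (-0.96 ± 0.07, adjusted p = 4.01e-08), the last pair being members of the loading complex. CALR went from 492 ± 10.1 FPKM in the parental line to means of 208 to 245 in the resistant lines. Tapasin, TAPBP, which holds the heavy chain to the transporter, fell in each of the 5 lines, as 12.3% of tested genes did. It went from 14.3 ± 0.41 FPKM to means of 9.41 to 12.2 (mean fold -0.36 ± 0.06, adjusted p = 9.10e-05). SEC61A1 (-0.42) and the chaperone CANX (-0.39) also fell, and CANX lost its call under quantile normalisation (-0.11, adjusted p = 0.136).

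ERAP2, which trims peptides in the endoplasmic reticulum, was the gene of that list that rose in the mean (0.35 ± 0.12, adjusted p = 0.0265), and ER29 was the only line called. It stood at 0.103, 0.201 and 0.277 FPKM in the parental line and at 1.56, 1.40 and 1.82 in ER29. ERAP2 passed the filter through these ER29 libraries alone, so its calls in ER29 and in the mean are not separate support. The mean call was lost in 4 of 25 alternatives (adjusted p 0.0103 to 0.211).

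Of 13 constitutive proteasome core genes 11 fell and none rose in the mean (median fold -0.43). Among all tested genes 28.9% fell and 23.9% rose in that mean. The core falls were led by PSMB2 (-0.74), PSMB6 (-0.71) and PSMA7 (-0.71). Of 6 partners and regulators of the immunoproteasome 4 fell and none rose (median -0.29). These were the activator PSME3 (-0.68 ± 0.06, adjusted p = 1.54e-07), the assembly factor POMP (-0.60 ± 0.07, adjusted p = 3.61e-06), and the interferon-inducible activator subunits PSME1 (-0.33) and PSME2 (-0.24). PSME1 and PSME2 were not called under quantile normalisation (adjusted p 0.114 and 0.510), where 2 of the 6 partners fell (median -0.098), and 10 of 13 core genes fell and 2 rose (median -0.18).

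Of 11 other class I and class I-like genes 2 were tested, and both rose in the mean, as 23.9% of tested genes did. MR1, which presents vitamin metabolites to MAIT cells, went from 1.14 ± 0.25 FPKM in the parental line to 3.60 ± 0.54 in ER5, 3.29 ± 0.66 in ER29 and 2.64 ± 0.15 in ER28 (SD, n = 3). Its mean fold was 0.72 ± 0.11 (adjusted p = 8.02e-05), and it was not called in ER42 (0.29, adjusted p = 0.137). FCGRT, the chain of the neonatal Fc receptor that pairs with B2M, had a mean fold of 0.37 ± 0.08 (adjusted p = 0.00161) and was not called in ER28 (0.25, adjusted p = 0.0917) or ER42 (-0.02, adjusted p = 0.897). Of 10 class II genes 2 were tested, and none was called in the mean. HLA-DPB1, named after its values were seen, gave 3.01, 4.85 and 3.33 FPKM in ER42, above the 0 to 0.891 of all other lines. It passed the filter through these ER42 libraries alone, so a test of ER42 would not be separate support and no p-value is given.

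Of 14 factors known at class I promoters, 3 rose and 3 fell in the mean (median fold -0.04). Among all tested genes 23.9% rose and 28.9% fell, so this list did not stand out by number. The split of the 14 factors was 4 and 1 under median-of-ratios scaling and 5 and 0 under quantile normalisation. RFX5, a subunit of the complex that NLRC5 works with, rose in each of the 5 lines, as 5.63% of tested genes did. It went from 33.9 ± 1.82 FPKM to means of 41.9 to 53.5 (mean fold 0.46 ± 0.04, adjusted p = 5.95e-07). Its partner RFXAP rose by 0.31 (adjusted p = 0.000875) and NFYB by 0.17 (adjusted p = 0.0407, lost in 10 of 26 alternatives). The falls were those of NFKB1 (-0.24), RELA (-0.24) and NFYC (-0.17), each lost under quantile normalisation.

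Of 12 interferon receptor and signalling genes 1 rose and 1 fell in the mean, against 23.9% and 28.9% of all tested genes. STAT2, which carries type I interferon signals to the nucleus, stood at 20.2, 19.5 and 20.3 FPKM in the parental libraries. It gave 44.5, 40.9 and 36.3 in ER5, 37.4, 37.8 and 35.8 in ER29, and 39.1, 32.6 and 29.6 in ER47. It gave 27.0, 28.8 and 29.6 in ER28, and 22.3, 18.1 and 22.1 in ER42. STAT2 was not called in ER42 (0.05, adjusted p = 0.713), where the libraries overlapped the parental ones. IFNGR1, a chain of the interferon gamma receptor, fell in each of the 5 lines (mean fold -0.52 ± 0.06, adjusted p = 1.71e-06), as 12.3% of tested genes did.

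PRC2 is the Polycomb complex that writes H3K27 methylation and is known to silence class I genes in some tumours. In the mean 4 of its 7 subunits were lower and 2 higher, against 28.9% and 23.9% of all tested genes. Under quantile normalisation the split was 2 and 2. The catalytic subunit of PRC2, EZH2, stood at 49.3 ± 1.04 FPKM in the parental line. It fell to 23.4 ± 4.34 in ER5 (-1.06, adjusted p = 1.01e-06), 28.0 ± 1.27 in ER29 (-0.79, adjusted p = 2.32e-05) and 34.95 ± 3.90 in ER47 (-0.49, adjusted p = 0.00170). In ER28 (-0.06, adjusted p = 0.710) and ER42 (-0.15, adjusted p = 0.289) it was not called. RBBP7 fell in all 5 lines (mean -0.44), as 12.3% of tested genes did. JARID2 (0.41) and the alternative catalytic subunit EZH1 (0.35) rose in the mean.

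**Figure D4:**
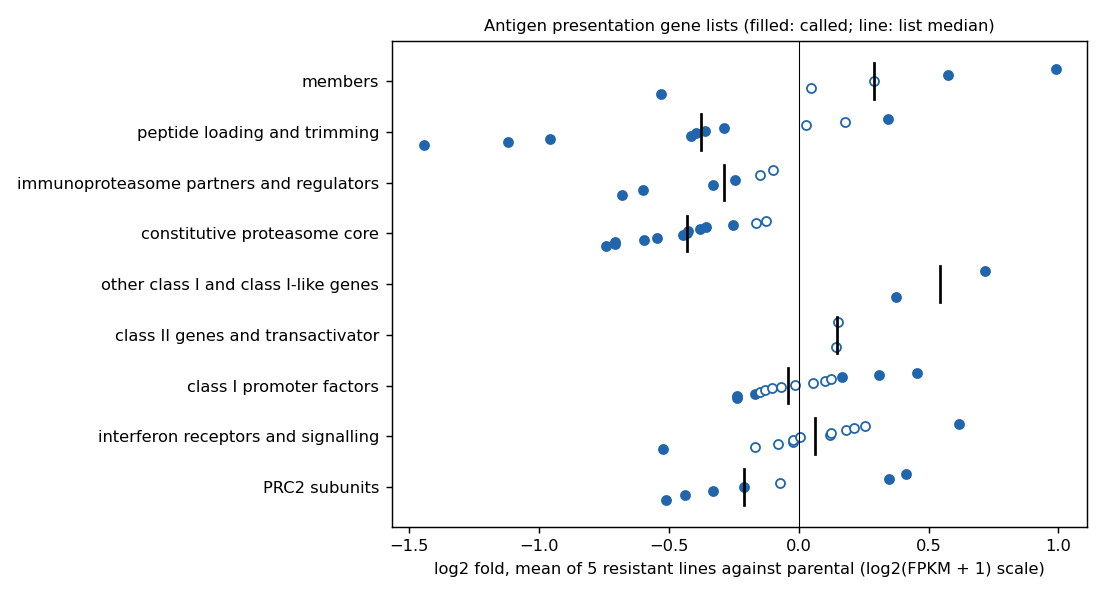
Log2 fold of each tested gene in the mean of the 5 resistant lines against the parental line, on the log2(FPKM + 1) scale, with a row per gene list; filled points passed an adjusted p under 0.05, and the vertical bar is the list's median. The members spread from -0.53 (NLRC5) to 0.99 (HLA-E), while the proteasome core has its median at -0.43, which was -0.18 under quantile normalisation.

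Of 1434 variable protein-coding genes (SD of at least 0.5 over the 18 libraries), those with levels most like HLA-E were PTPN13, DUSP10, FOXO1, COL6A6 and CALCOCO1, with Pearson r of 0.97, 0.97, 0.97, 0.97 and 0.96; HLA-E was added to that search after its values were seen. For NLRC5 they were PDLIM3 (0.69), BRINP1 (0.67), TNFRSF12A (0.66), ISLR (0.66) and PLA2G16 (0.66). These are descriptions over libraries that share lines. For HLA-B the highest r was 0.66 and rested on 5 libraries above 0, so no gene is named.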

How the data were processed

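RNA was measured in 18 libraries, 3 from each of 6 lines, grouped by the titles in the labels. Libraries were made from total RNA after removal of ribosomal RNA, per the labels' protocols, and run on HiSeq and NextSeq machines. No source used here ties a library to a machine, so machine effects were not tested. The submitters' processing notes name hg19, Subread 1.5.0-p1, STAR-Fusion, featureCounts and STAR 2.5.3. The authors deposited FPKM values per Ensembl gene identifier; no source used here gives the tool that made them, the library totals or the use of strand, so depth is known only in relative terms and no interval from counts is given. An exact 0 can be a failed estimate.

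Symbols and chromosomes came from GENCODE v29 (52514 of 63657 identifiers found). Where identifiers shared a symbol, that with the highest mean was used. Promoters came from RefSeq on GRCh38.p14; 7 of the 9 members had a window and HLA-E and NLRC5 did not. No coordinates are given for expression values, which were made on hg19.

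The 19799 genes with 3 or more libraries at 1 FPKM or above were tested with limma 3.58.1 (R 4.3.3; intensity trend, 1 coefficient per line, all 18 libraries, two-sided) on log2(FPKM + 1), which understates the change of low genes. P-values were adjusted by the Benjamini-Hochberg method over all 19799 genes, and a gene was called at an adjusted p under 0.05. "Rose" and "fell" are used for called genes. The script was tested on simulated data. All 5 comparisons share the parental libraries. Members and gene lists were chosen with earlier results of these data known; up to 5 called genes per list with the largest mean fold are named, with partners of members. The HLA-E search and HLA-DPB1 were added after values were seen. PSMB3 is not analysed here. The alternatives were another pseudocount (0.1), no filter, a filter at FPKM 5, median-of-ratios scaling, quantile normalisation, a replicate block, protein-coding genes only, no intensity trend, a fit to the 2 lines compared and each library left out.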

Additional observations from a re-analysis of the deposited data

Results flagged for a closer look

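The change against the parental line differed among the 5 resistant lines for 3 members by limma's F test. For HLA-E the adjusted p was 9.09e-07, with folds from 0.23 in ER42 to 1.61 in ER5. For HLA-C it was 0.00538, with folds from 0.35 in ER42 and ER28 to 0.95 in ER29. For B2M it was 0.0161, with folds from -0.18 in ER42 to 0.21 in ER47, none of which was called against the parental line. Over all tested genes this F test called 52.3%, so a difference among the lines was common. In all 26 alternatives run for this test the 3 genes stayed called. TAP2 (adjusted p = 0.449) and NLRC5 (adjusted p = 0.251) were not called.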

How the results depend on the processing

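The counts of all genes called stayed within 1.5 times in all 187 alternatives. The number of members called became 5 in the F test, 0 in ER42, 1 in ER28 and 4 in ER29 without a filter, where all 9 members were tested. In ER42 it was 2 under median-of-ratios scaling, 0 under quantile normalisation and 2 with protein-coding genes only. Other counts moved as well, and not all are listed here. Without a filter NLRC5 lost its call in ER5 (adjusted p = 0.0611) and ER47 (adjusted p = 0.0790). Under quantile normalisation B2M was added in ER28, ER29, ER47 and the mean of the lines. With each library left out in turn, the number ranged from 0 to 2 in ER42, 2 to 4 in ER47, 2 to 2 in ER29, 2 to 3 in ER5, 1 to 2 in ER28, 2 to 3 in the mean of the lines and 3 to 3 in the F test. Signs turned under quantile normalisation for B2M in ER5 (0.17) and ER42 (0.041), TAP2 in ER29 (-0.065) and RBBP4 in the mean (0.040). Leaving out libraries, the TAP2 fold in ER29 ranged from -0.0022 (without ER29 replicate 1) to 0.27 (without ER29 replicate 2); the cause was not tested. The calls of HLA-E in ER5, ER28, ER29, ER47 and the mean, and of HLA-C in ER5, ER29, ER47 and the mean, held in every alternative run.

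Deviations from the line mean in same-numbered libraries of different lines had r from -0.263 to 0.230 over 45 pairs (median 0.024, 5 over 0.1). Pairs of other numbers had r from -0.236 to 0.250 over 90 pairs (median -0.0066, 8 over 0.1). Of 18 libraries, 9 correlated best with their own number. This check cannot exclude that the numbers pair the samples, and the main fit did not pair them. With the replicate number as a block, the mean NLRC5 fold lost its call (adjusted p = 0.0553), and no other call changed among the members by line or the named genes in the mean of the lines, for which the block was fitted. Calls by line of genes other than members were not run under the alternatives. Values below 1 FPKM (HLA-B, TAP1, PSMB8, PSMB9) are limited by depth.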
